A study of Bubalus bubalis with 12 samples.

Results

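Solute carrier genes encode the membrane proteins that move amino acids, sugars, ions, metals, carboxylates and cofactors into and out of cells and organelles. The genes described here are the 126 whose symbol on the array has the form SLC, a family number, the letter A and a member number, and that carry at least 2 measuring probes. They make up 1.85% of the 6805 genes with at least 2 probes, and another 54 symbols of this form had 1 probe and were not analysed here. Membership was decided by symbol and probe number alone, and all 126 had values on all 12 arrays.

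The samples were frozen-thawed spermatozoa of 6 water buffalo bulls (Bubalus bubalis), 3 subfertile (SF1, SF4 and SF5) and 3 high-fertile (HF2, HF3 and HF5). Chromatin of each bull was cross-linked, cut with micrococcal nuclease and precipitated with an antibody to H3K4me2 or to H3K27me3, giving 1 array per bull and mark. On each array the precipitated DNA was labelled with Cy5 and the input DNA of the same bull with Cy3, on all arrays in that orientation. Both arrays of a bull lay on the same slide. Only slide 4 held bulls of both fertility groups, SF1 and HF5, and each other bull had a slide of its own. The bulls' ages and breed, and the criteria for their fertility, were not given in the sources used here. A level below is the log2 of ChIP signal divided by input signal, minus the median of all probes on that array, so that 0 is the array median and no absolute occupancy is measured. Every fertility difference is the subfertile mean minus the high-fertile mean, and SD and n refer to 3 bulls a group unless stated.

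Solute carriers are grouped into families by sequence, and members of a family often share a type of substrate. In sperm they supply lactate and sugars to the flagellum, exchange ATP across the mitochondrial membrane, and set the sodium, bicarbonate, chloride and zinc balance on which motility and capacitation depend. H3K4me2 is a mark of active or poised promoters, and H3K27me3 is placed by Polycomb complexes at silenced genes. Most histones are replaced by protamines during sperm maturation, and in mammals the nucleosomes that remain are often found at CpG-rich promoters. Each ratio has the bull's input as its denominator, and in a bulk preparation fewer nucleosomes at a locus and fewer cells that retain them cannot be told apart.

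The 126 members belonged to 35 families and carried 1591 probes, which the array design assigns to CpG islands (1313), promoters (218) and coding sequence (60). A member had from 2 to 87 probes with a median of 6. SLC22A23, an orphan carrier of the organic ion family, had 87, SLC17A7, the vesicular glutamate transporter VGLUT1, had 84, and SLC2A11, a facilitative hexose carrier, had 68. At the other end, 37 members had only 2 or 3 probes. In 109 members at least 1 probe lay in a CpG island, and the other 17 were read by promoter probes only. By symbol, 119 members were found in the buffalo RefSeq gene table of assembly NDDB_SH_1. The probes were designed on cattle sequence (build HGSC Btau_3.1, per the file headers), which all positions below follow, and they were hybridised with buffalo DNA.

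Many probes of a member overlapped, so the number of probes overstates the number of places measured. The 1591 probes fell into 368 separate sites, 311 placed by the probe's own coordinates and 57 known only as the window the probe was designed in. Of the 126 members, 20 were measured at 1 site, 54 at 2 sites and 52 at 3 or more. In 97 members a single site held at least 50% of the probes, a count that includes members with 2 probes at 2 sites. The 171 placed sites with at least 2 probes had a median length of 85 bases. Probes of a site gave nearly the same fertility difference, with a median SD of 0.24 for H3K4me2 and 0.19 for H3K27me3 (log2), whereas sites of the same member had a median SD of 0.66 and 0.59. A member's mean over probes therefore often rests on 1 or 2 short stretches of DNA.

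The sequences of the probes behind the main values are printed here because they show how short these stretches are. They are 60 bases long, as in the deposited scanner files, with CG dinucleotides in capitals, and the strand on the cattle genome is not given in the sources used here. The 4 probes of SLC6A2, which encodes the plasma membrane noradrenaline transporter, start within 10 bases of each other and cover chr18:23472814-23472882.
SLC6A2 probe 1: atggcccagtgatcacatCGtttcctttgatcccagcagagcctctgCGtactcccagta
SLC6A2 probe 2: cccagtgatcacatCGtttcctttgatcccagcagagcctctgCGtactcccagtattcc
SLC6A2 probe 3: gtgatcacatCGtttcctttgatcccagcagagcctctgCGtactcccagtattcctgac
SLC6A2 probe 4: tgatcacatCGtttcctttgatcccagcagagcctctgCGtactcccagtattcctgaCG
Probe 4 is annotated to the promoter and the other 3 to a CpG island, although they cover the same bases. The sites of SLC25A40, a mitochondrial carrier closely related to the glutathione carrier SLC25A39, and of SLC22A7, an organic anion transporter, were as compact, at chr4:33639144-33639212 and chr23:17510010-17510087.
SLC25A40 probe 2: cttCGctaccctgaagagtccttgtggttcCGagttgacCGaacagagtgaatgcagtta
SLC22A7 probe 4: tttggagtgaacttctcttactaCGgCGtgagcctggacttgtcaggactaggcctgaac
In 3 other members a site with a large fertility difference can be set beside one without. These are SLC16A3, the lactate exporter MCT4, SLC41A1, a magnesium transporter, and SLC25A31, the ADP/ATP carrier isoform of the germ line. For each, a probe of the first site is given before a probe of the other site, and the second SLC16A3 probe is placed only to its design window, chr19:52041789-52042726.
SLC16A3, chr19:52031565-52031624: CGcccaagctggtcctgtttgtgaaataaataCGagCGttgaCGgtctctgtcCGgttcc
SLC16A3, design window: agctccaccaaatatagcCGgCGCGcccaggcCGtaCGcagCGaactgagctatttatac
SLC41A1, chr16:2554069-2554128: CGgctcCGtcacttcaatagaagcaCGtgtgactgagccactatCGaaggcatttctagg
SLC41A1, chr16:2566157-2566216: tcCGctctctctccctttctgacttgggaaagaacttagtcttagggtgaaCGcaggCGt
SLC25A31, chr17:31751305-31751364: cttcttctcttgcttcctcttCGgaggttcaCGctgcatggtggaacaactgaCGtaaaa
SLC25A31, chr17:31751370-31751429: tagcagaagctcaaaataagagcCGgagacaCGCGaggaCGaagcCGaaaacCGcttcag

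Across the arrays, the median signal ranged from 356 to 1360 in the ChIP colour and from 321 to 479 in the input colour. The lowest H3K4me2 ChIP medians, 356 in SF5 and 588 in HF5, came from 1 bull of each fertility group. On these arrays the log2 ratio of GC-rich probes (32 or more G or C bases) stood above that of GC-poor probes (28 or fewer), by 1.02 in SF5 and 0.90 in HF5. On the H3K27me3 arrays of the same bulls it stood above by 0.22 in SF5 and 0.65 in HF5. On the arrays of the other bulls this difference lay between -0.24 and 0.12. Of the members' probes, 1458 of 1591 were well above background in the ChIP colour on all 12 arrays and 7 were saturated on at least 1. Arrays measure chromatin and not RNA, so cell type markers check the preparation only as loci. Of 11 sperm and germ cell markers 7 were measured, with a median level of 0.09 for H3K4me2 and -0.27 for H3K27me3, beside 0.06 and 0.00 over all genes. Of leukocyte markers 4 of 8 were measured (medians -0.14 and -0.01), of epithelial markers 5 of 7 (0.24 and -0.01) and of somatic testis markers 2 of 7 (0.02 and 0.19). The median subfertile minus high-fertile difference of the germ cell markers was 0.48 for H3K4me2 and 0.23 for H3K27me3. It was 0.33 and 0.03 for the leukocyte, -0.01 and 0.42 for the epithelial and 0.74 and 0.23 for the somatic testis markers. The 2 somatic testis markers went opposite ways for H3K4me2, -0.02 and 1.49. An unadjusted p under 0.05 for H3K4me2 (limma) was met by 2 of 7 germ cell and 1 of 2 somatic testis markers, and by 0 leukocyte and 0 epithelial markers, beside 2.91% of all genes. For H3K27me3 it was met by 0 markers of each list, beside 4.07% of all genes. What other cells of semen contributed to the values below was not tested.

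The first comparison asked whether H3K4me2 at solute carrier genes differed between subfertile and high-fertile bulls. No member passed the correction: limma's moderated test with Benjamini-Hochberg adjustment over all 6805 genes called 0 of 126 members and 0.0% of all genes at an adjusted p of 0.05, and the lowest adjusted p of a member was 1.00. At an unadjusted p under 0.05 there were 5 members, 3.97%, beside 2.91% of all genes. Of these 1 was higher in subfertile bulls (0.794%, beside 1.22%) and 4 lower (3.17%, beside 1.69%). In 9 members, 7.14%, the 3 subfertile arrays lay entirely on one side of the 3 high-fertile arrays, beside 6.58% of all genes. These were 4 higher (3.17%, beside 3.1%) and 5 lower (3.97%, beside 3.48%). The median difference over the members was 0.07, beside 0.02 over all genes, with 68 members higher and 58 lower in the subfertile mean, and 51.8% of all genes higher. The 95% confidence interval of a member's difference reached a median of 1.16 log2 units to either side, so smaller differences lay within the error of 3 bulls a group.

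SLC25A40 had the smallest unadjusted p among the members for H3K4me2. Its level was 0.98, 0.92 and 0.44 in SF1, SF4 and SF5, against -0.26, -0.83 and -1.57 in HF2, HF3 and HF5. All 3 subfertile bulls lay above the array median and all 3 high-fertile bulls below it. The difference was 1.67 (95% confidence interval 0.58 to 2.75, unadjusted p = 0.00728, adjusted p = 1.00, limma). The input signal at this site, in log2 against the array median, was -2.75, -2.04 and -3.00 in the subfertile bulls, against -1.45, -0.41 and -0.01 in the high-fertile bulls, and these groups did not overlap either. With the ChIP signal alone, without the input, the H3K4me2 difference was -0.33, so its direction turned. The H3K27me3 level of SLC25A40 overlapped between the groups, with a difference of 0.39 that lay between -0.17 (without HF3) and 1.17 (without HF5) with single bulls left out.

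Another 3 members lay higher in all subfertile bulls for H3K4me2. SLC26A7, an anion transporter of kidney and stomach epithelium, had levels of 0.02, 0.20 and 0.65 in the subfertile bulls, against -0.33, -0.16 and -3.18 in the high-fertile bulls. HF5 stood far below the rest, and the difference of 1.51 was 0.54 without that bull. SLC12A2, the sodium-potassium-chloride cotransporter NKCC1, whose loss makes male mice infertile, had levels of 0.24, 0.29 and 1.88 in the subfertile bulls, against -0.74, -0.31 and 0.19 in the high-fertile bulls. SF5 was the high value there, and the difference was 1.09 with all bulls and 0.55 without SF5. Within SLC12A2 the promoter probe at chr7:24778000-24778059, which holds no CG, differed by 2.44 and the coding probe at chr7:24775643-24775702 by 0.43. SLC13A4, a sodium-coupled sulphate transporter read by 2 promoter probes, differed by 0.63 (0.39, 0.17 and 0.18 in subfertile bulls, against -0.37, -0.24 and -0.55 in high-fertile bulls), and by -0.00376 with the ChIP signal alone.

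The 5 members that lay lower in all subfertile bulls were SLC6A2, SLC16A3, SLC22A7, SLC38A9 and SLC41A1. SLC6A2 had H3K4me2 levels of -1.60, -1.22 and -1.27 in SF1, SF4 and SF5, against -0.03, 1.76 and -0.31 in HF2, HF3 and HF5. The subfertile bulls lay close together, and HF3 was the high value of the other group. The difference was -1.83 (95% confidence interval -3.18 to -0.49, unadjusted p = 0.0134, adjusted p = 1.00, limma), with an input difference of 1.62 and a ChIP-alone difference of 0.06. Without HF3 it was -1.19. SLC16A3 had levels of -0.33, -0.98 and -1.28 in the subfertile bulls, against 1.08, 1.73 and -0.14 in the high-fertile bulls, a difference of -1.76 with an input difference of 0.98 and a ChIP-alone difference of -0.69. SLC22A7 had the largest H3K4me2 difference of any member, -2.42, with levels of 0.16, -1.23 and -2.13 in the subfertile bulls, against 0.90, 2.86 and 0.30 in the high-fertile bulls. Its groups were parted by only 0.16 in SF1 and 0.30 in HF5, its input differed by 2.00, and its ChIP signal alone differed by -0.45.

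SLC38A9, a lysosomal amino acid transporter that signals arginine to the mTORC1 kinase in human cells, was the member of these 9 whose ChIP signal alone also parted the groups. Its H3K4me2 level was -0.56, -0.22 and -1.17 in the subfertile bulls, against 0.61, 0.42 and 1.26 in the high-fertile bulls. Each subfertile bull lay below the array median and each high-fertile bull above it. The difference was -1.41 (95% confidence interval -2.47 to -0.36, adjusted p = 1.00, limma), the ChIP signal alone differed by -0.75, and the input differed by 0.65 with no overlap. Its H3K27me3 levels overlapped, with a difference of -0.28. SLC41A1 averaged -0.14 ± 0.37 in the subfertile bulls and 0.76 ± 0.56 in the high-fertile bulls (SD, n = 3 each), a difference of -0.91 that was -0.58 without HF5.

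**Figure D1:**
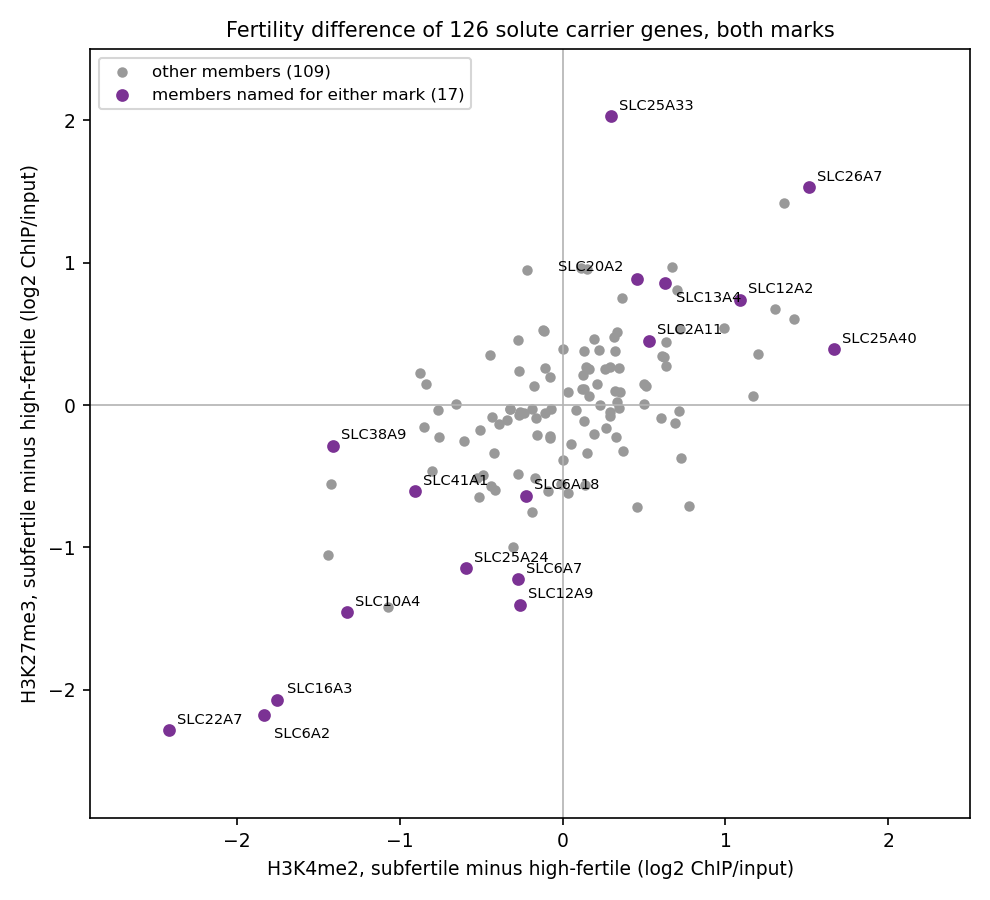
Each point is 1 of the 126 solute carrier genes, with its subfertile minus high-fertile difference for H3K4me2 on the horizontal axis and for H3K27me3 on the vertical axis (log2 ChIP/input). Purple points are the 17 members named for either mark, of which SLC22A7, SLC6A2 and SLC16A3 lie at the lower left; both axes come from the same bulls and their input DNA.

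For H3K27me3, too, no member passed. In limma 0 of 126 members and 0.0% of 6805 genes had an adjusted p under 0.05, and the smallest adjusted p was 1.00 among members and 0.705 among all genes. At an unadjusted p under 0.05 there were 8 members, 6.35%, beside 4.07% of all genes, 2 higher (1.59%, beside 1.84%) and 6 lower (4.76%, beside 2.23%). The groups did not overlap in 14 members, 11.1%, beside 8.57% of all genes. Of these 14, 4 lay higher in the subfertile bulls, 3.17% beside 4.01% of all genes, and 10 lower, 7.94% beside 4.56%. The median difference over members was -0.03, beside -0.01 over all genes, and 60 of 126 members and 49.3% of all genes were higher in the subfertile mean. The median half-width of the 95% confidence interval was 1.09.

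SLC6A2 had the smallest unadjusted p for H3K27me3. Its H3K27me3 level was -1.82, -0.80 and -0.32 in SF1, SF4 and SF5, against 0.38, 1.40 and 1.82 in HF2, HF3 and HF5. Every subfertile bull lay below the array median and every high-fertile bull above it. The difference was -2.18 (95% confidence interval -3.44 to -0.92, unadjusted p = 0.00386, adjusted p = 1.00, limma). With the ChIP signal alone it was -0.86 and the groups still did not overlap. SLC16A3 had H3K27me3 levels of -0.01, -1.23 and -0.89 in the subfertile bulls, against 1.68, 2.18 and 0.22 in the high-fertile bulls, a difference of -2.07. Its ChIP signal alone differed by -1.21, with overlap. SLC22A7 differed by -2.29, with SF1 at -0.59 just above HF5 at -0.68, so the groups overlapped, and without HF3 the difference was -1.48.

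SLC12A9, a relative of the cation-chloride cotransporters, had the next smallest unadjusted p for H3K27me3. Its level was -0.29, -0.42 and -0.65 in the subfertile bulls, against 0.78, 0.85 and 1.21 in the high-fertile bulls. The difference was -1.40 (95% confidence interval -2.22 to -0.58, unadjusted p = 0.00428, adjusted p = 1.00, limma), between -1.49 and -1.27 when each bull was left out in turn. The ChIP signal alone differed by -0.78 and the input by 0.68, both without overlap. Its H3K4me2 levels overlapped, with a difference of -0.26. The sites of SLC12A9 differed: the 2 probes in the design window chr25:37904512-37904868 averaged -2.96, the promoter probe at chr25:37902608-37902667 gave -1.09, and the 2 probes at chr25:37914194-37914258 averaged -0.00359. The window probe with the larger difference, -3.40, holds 6 CG dinucleotides.
SLC12A9, design window: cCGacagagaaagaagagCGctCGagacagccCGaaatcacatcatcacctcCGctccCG

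Members higher in all subfertile bulls for H3K27me3 were SLC25A33, SLC20A2, SLC12A2 and SLC2A11. SLC25A33, the mitochondrial carrier of pyrimidine nucleotides, had levels of 0.63, -0.76 and 1.54 in the subfertile bulls, against -1.79, -1.26 and -1.64 in the high-fertile bulls. The high-fertile bulls lay within a narrow range below the array median, and the subfertile bulls varied widely. The difference was 2.03 (95% confidence interval 0.68 to 3.37, unadjusted p = 0.00827, adjusted p = 1.00, limma), the ChIP signal alone differed by 1.07 without overlap, and the input differed by -0.97. Only 2 promoter probes read SLC25A33, at chr16:40976200-40976259, where the difference was 1.33, and at chr16:41009896-41009955, where it was 2.72. The second of these probes is rich in A and T, with 21 G or C bases of 60.
SLC25A33, chr16:41009896-41009955: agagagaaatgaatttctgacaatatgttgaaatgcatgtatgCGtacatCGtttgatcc

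SLC20A2, a sodium-phosphate cotransporter, was measured by 42 probes at 5 sites. Its H3K27me3 level was 0.54, 0.10 and 0.32 in the subfertile bulls, against -0.48, -0.83 and -0.37 in the high-fertile bulls. The difference was 0.88 (95% confidence interval 0.05 to 1.72, unadjusted p = 0.0403, adjusted p = 1.00, limma), with an input difference of -0.54. The 22 probes of the largest site differed by 1.61, and the other 4 sites by 0.74, -0.06, -0.07 and -0.42. SLC12A2 differed by 0.74, with a ChIP-alone difference of 0.56 that also parted the groups, and again its promoter probe differed most, by 2.14. SLC2A11 differed by 0.45, with levels of -0.22, -0.28 and -0.30 in the subfertile bulls, against -0.43, -1.11 and -0.63 in the high-fertile bulls. All 6 bulls lay below the array median for this gene, and the difference was 0.26 without HF3.

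The other members lower in all subfertile bulls for H3K27me3 had smaller or less even differences. SLC25A24, the mitochondrial ATP-magnesium/phosphate carrier, differed by -1.15 (averages -0.65 ± 0.27 in subfertile and 0.49 ± 0.40 in high-fertile bulls; SD, n = 3 each). SLC10A4, an orphan relative of the bile acid transporters found in neurons, differed by -1.45 and was parted by only -0.21 in SF4 and -0.16 in HF2, and without HF3 the difference was -0.88. SLC6A7, the brain proline transporter, differed by -1.22, and by -0.61 without HF5, which stood at 2.02. SLC6A18, a renal neutral amino acid transporter in mice, differed by -0.64 and SLC41A1 by -0.60. The 2 that the naming rule left out, SLC38A3 and SLC43A2, named here because they complete the count of 10, differed by -0.56 (-0.20 without HF5) and -0.23. Of the 28 members that family number places with amino acid and peptide carriers, 5 were among these 10, beside 4.56% of all genes. None of the 28 was among the 4 higher ones, beside 4.01% of all genes. SLC6A2, the noradrenaline transporter, is 1 of the 5. Over the 28 the median was -0.01, with 14 above 0, and the list was not tested. For H3K4me2 the groups did not overlap in 2 of the 28 that were lower, beside 3.48% of all genes, and in 0 higher, beside 3.1%.

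**Figure D2:**
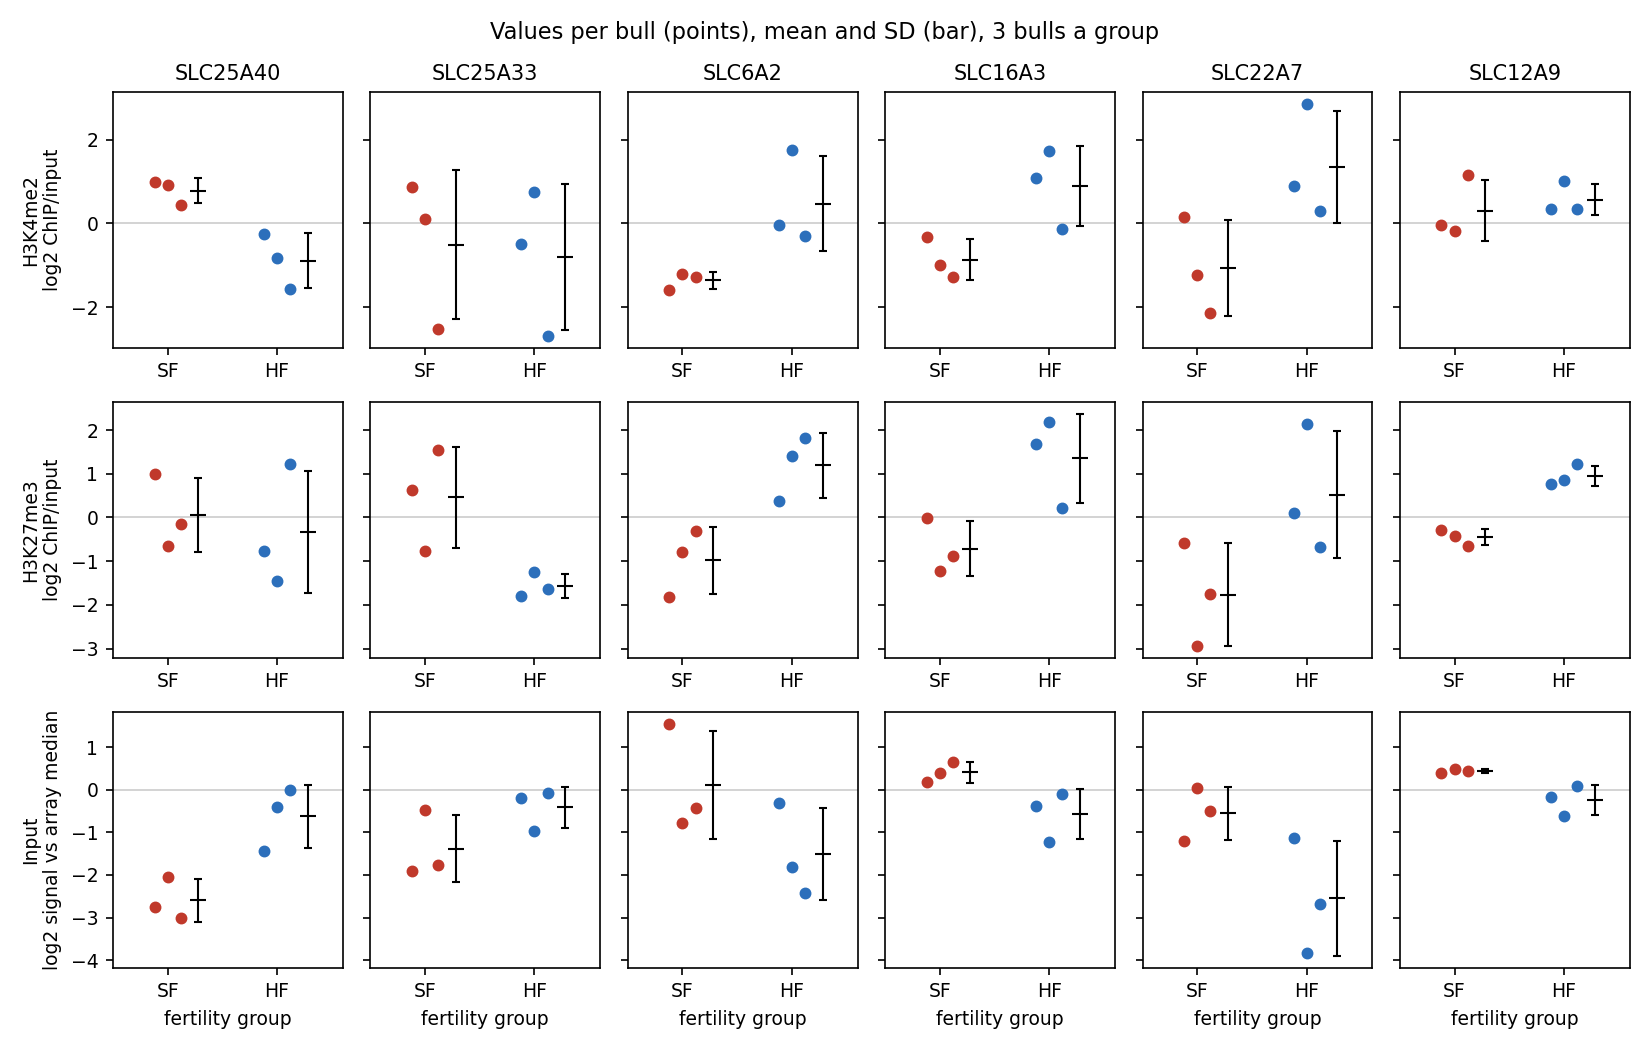
Columns are 6 members and rows are the H3K4me2 level, the H3K27me3 level (both log2 ChIP/input) and the input signal (log2 against the array median); points are single bulls, subfertile (SF, red) left of high-fertile (HF, blue), and bars are mean and SD of 3 bulls. In SLC6A2, SLC16A3 and SLC22A7 the ratios are lower and the input higher in the subfertile means, and in SLC25A40 the H3K4me2 ratio is higher and the input lower.

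Input DNA carries no antibody selection, so its own fertility difference was measured beside every ratio. In the input, limma called 0 of 126 members and 0.0% of all genes at an adjusted p of 0.05 (lowest adjusted p of a member 0.997). At an unadjusted p under 0.05 there were 7 members, 5.56%, beside 3.54% of all genes, 5 higher (3.97%, beside 2.17%) and 2 lower (1.59%, beside 1.37%), and the groups did not overlap in 12 members, 9.52%, beside 7.77%, 7 of them higher (5.56%, beside 4.6%) and 5 lower (3.97%, beside 3.17%). The input was higher in the subfertile mean in 72 of 126 members and in 56.0% of all genes. Among the lowest input differences were -1.97 in SLC25A40 and -1.14 in SLC1A3, a glutamate transporter of glia. The highest were 2.00 in SLC22A7, 1.62 in SLC6A2 and 1.53 in SLC4A4, an electrogenic sodium bicarbonate cotransporter, where HF3 stood at -3.35. The H3K4me2 ratio of SLC1A3 differed by 1.36, with overlapping groups, and by 0.55 without SF4 and 2.64 without SF5.

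Since the input is subtracted in each log2 ratio, a ratio and its input tend to differ in opposite directions by construction. All 9 members whose H3K4me2 groups did not overlap had an input difference of the opposite sign, as did 93.5% of all genes in that class and 79.4% of all 126 members. In H3K27me3 it was 13 of 14 such members, beside 91.9% of all genes in that class. Without the input, the ChIP signal alone kept the direction in 6 of the 9 H3K4me2 members and parted the groups in 1, SLC38A9. Among all 448 genes in that class it kept the direction in 404 and parted the groups the same way in 102. For H3K27me3 it kept the direction in 14 of 14 and parted the groups in 6: SLC12A2, SLC12A9, SLC25A33, SLC38A3, SLC6A2 and SLC6A7. Among all 583 genes in that class it kept the direction in 545 and parted the groups the same way in 142. The median size of the difference in the 9 H3K4me2 members was 1.51 as a ratio, 0.69 in the ChIP signal alone and 0.82 in the input. What the input contributed to the ratio differences was not tested beyond these values.

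**Figure D3:**
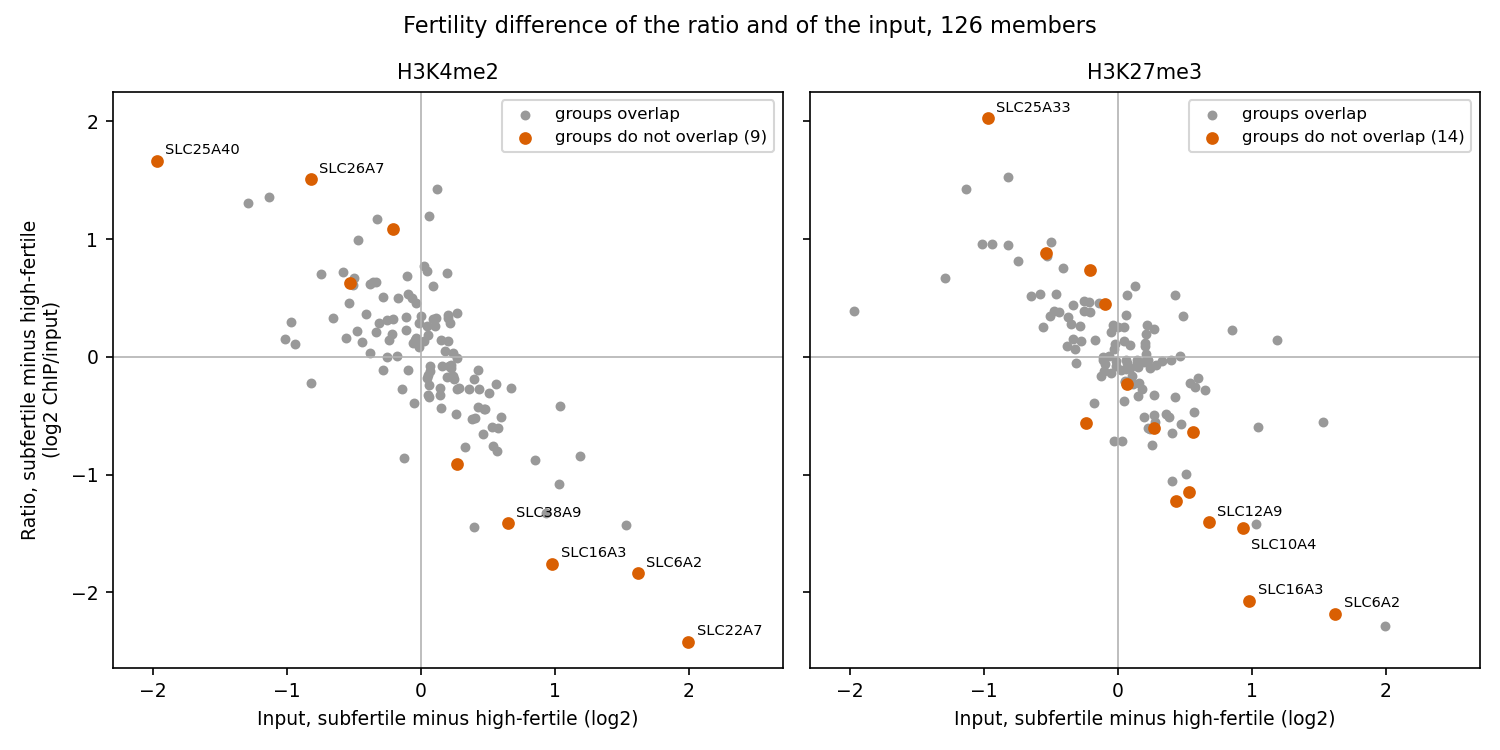
Each point is 1 of the 126 members, with the subfertile minus high-fertile difference of the input on the horizontal axis (log2) and of the ChIP/input ratio on the vertical axis (log2), for H3K4me2 on the left and H3K27me3 on the right. Orange points are the 9 and 14 members whose groups did not overlap; SLC25A40 lies at an input difference of -1.97 and SLC22A7 at 2.00.

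The fertility difference was also followed along single members, because sites of the same gene could be compared on the same arrays. In SLC16A3 the 5 overlapping probes at chr19:52031565-52031636 differed by -2.05 for H3K4me2, between -2.29 and -1.91, and the probe in the other design window by -0.29. At the first site the levels were -0.52, -1.20 and -1.68 in the subfertile bulls, against 1.06, 1.96 and -0.28 in the high-fertile bulls. At the second they were 0.62, 0.09 and 0.74, against 1.19, 0.58 and 0.54, and the groups overlapped. In SLC41A1 the 4 probes at chr16:2554069-2554143 differed by -2.01 for H3K4me2 and -1.41 for H3K27me3, whereas the sites further along the gene differed by 0.14 and 0.25 for H3K4me2. In SLC25A31 the 5 probes at chr17:31751293-31751364 differed by -1.76 and the adjoining probe, which begins 6 bases further on, by 0.16. The levels at the first SLC25A31 site ranged from -2.15 in SF1 to 3.07 in HF5, and those at the adjoining probe from -1.30 in HF2 to 1.19 in SF4. These sites were singled out after their values were seen, and the difference between sites was not tested.

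**Figure D4:**
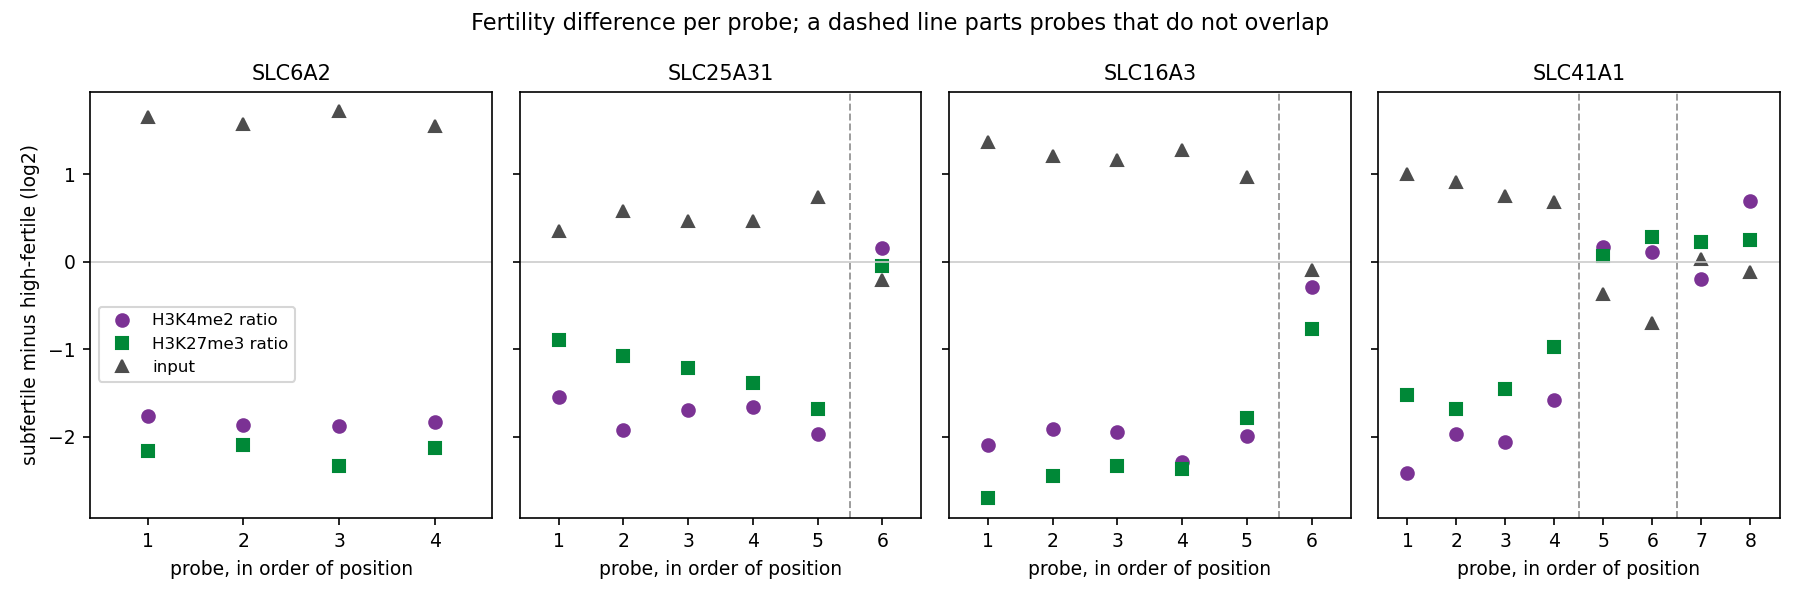
Each panel is 1 member, with its probes in order of position on the horizontal axis and their subfertile minus high-fertile difference (log2) on the vertical axis, for the H3K4me2 ratio, the H3K27me3 ratio and the input. Dashed lines part probes that do not overlap: the 5 first probes of SLC16A3 average -2.05 for H3K4me2 and the last, placed to its design window, is -0.29.

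The next question was whether the fertility difference itself differed between the marks. For no member did it pass: limma's interaction term called 0 of 126 at an adjusted p of 0.05, and 0 at an unadjusted p under 0.05, beside 0.0% and 0.661% of all genes. The smallest unadjusted p of a member was 0.0707, in SLC12A9, whose H3K4me2 minus H3K27me3 difference of differences was 1.14. In SLC38A9 it was -1.13, in SLC25A33 -1.73 and in SLC25A40 1.27, and the median half-width of the 95% confidence interval was 1.51. It lay above 0 in 68 members and in 52.2% of all genes. The fit behind these values took the 2 arrays of a bull as independent, although they share its input DNA and its slide. With the bull as a block, 0 of 126 members passed an adjusted p of 0.05 as well. The members named above for a single mark were thus not shown to differ between marks.

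H3K4me2 and H3K27me3 were then compared with each other within the same 6 bulls. None of the 126 members passed an adjusted p of 0.05 in limma or an unadjusted p under 0.05, beside 0.0% and 0.602% of all genes. H3K4me2 was the higher mark in 78 members and the lower in 48, with a median difference of 0.08, beside 59.8% of all genes and a median of 0.06. In 4 members, 3.17% beside 3.54% of all genes, all 6 bulls had the same sign, with H3K4me2 higher in 3 (2.38%, beside 2.44%) and lower in 1 (0.794%, beside 1.1%). In SLC2A11 H3K4me2 exceeded H3K27me3 by 0.58 on average, in SLC25A3, the mitochondrial phosphate carrier, by 0.56, and in SLC9A3, the sodium-proton exchanger NHE3, by 0.40. SLC24A6, a mitochondrial sodium-calcium exchanger, had the higher H3K27me3 in all 6 bulls, with a difference of -0.26. Their 95% confidence intervals from this unpaired fit all included 0, from -0.09 to 1.24 in SLC2A11 and from -0.03 to 1.14 in SLC25A3.

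Most levels lay near the array median, and they varied between bulls. Averaged over 6 bulls, 76 members lay above 0 for H3K4me2 and 56 for H3K27me3, beside 57.8% and 50.3% of all genes. The averages ranged from -0.73 in SLC52A3, a riboflavin transporter, to 0.91 in SLC30A1, the plasma membrane zinc exporter, for H3K4me2. For H3K27me3 they ranged from -1.06 in SLC25A15, the mitochondrial ornithine carrier, to 0.77, again in SLC30A1. Within 0.25 of the array median lay 80 members for H3K4me2 and 85 for H3K27me3, and the median SD over the 6 bulls was 0.62 and 0.57. No level passed an adjusted p of 0.05 in limma. At an unadjusted p under 0.05 there were 5 members for H3K4me2, 3.97% beside 4.44% of all genes, and 4 for H3K27me3, 3.17% beside 5.29%.

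Few members kept the same side of the array median in all 6 bulls: 4 for each mark, 3.17%, beside 3.59% of all genes for H3K4me2 and 3.51% for H3K27me3. Above it lay 2 for H3K4me2 and 1 for H3K27me3 (2.01% and 1.63% of all genes), and below it 2 and 3 (1.57% and 1.88%). For H3K4me2 SLC29A3, a lysosomal nucleoside transporter, averaged 0.30 ± 0.27 and SLC4A2, a chloride-bicarbonate exchanger, 0.18 ± 0.17 (SD, n = 6 bulls here and in the next sentences). SLC52A3 averaged -0.73 ± 0.64 and SLC30A7, a zinc transporter of the Golgi, -0.65 ± 0.34. The H3K27me3 level of SLC7A8, the neutral amino acid exchanger LAT2, lay between 0.25 and 0.58 in all 6 bulls and averaged 0.40 ± 0.13. SLC2A11 averaged -0.50 ± 0.33, SLC29A2, a nucleoside transporter, -0.33 ± 0.30, and SLC27A1, a fatty acid transport protein, -0.28 ± 0.23. SLC30A1, the highest member on average for both marks, was not among them: its H3K4me2 level was 0.89, 0.82 and 3.14 in the subfertile bulls, against 0.04, 0.99 and -0.43 in the high-fertile bulls.

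The marks of one bull resembled each other more than the same mark did in different bulls. Across the 126 members, the H3K4me2 and H3K27me3 levels of one bull correlated with a mean Pearson r of 0.61, from 0.22 to 0.85 over the 6 bulls, beside 0.57 over all genes. For the same mark in different bulls the 15 pairs had a median r of -0.02 for H3K4me2 and 0.01 for H3K27me3, and ranged from -0.29 to 0.29 for H3K4me2. The points of these correlations are genes, which do not count as replicates, and the 2 arrays of a bull share its input DNA and its slide.

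By substrate, the group medians lay between -0.23 and 0.26 for H3K4me2 and between -0.09 and 0.24 for H3K27me3. Of 28 members of the amino acid and peptide carrier families, 18 were higher in the subfertile mean for H3K4me2 and 14 for H3K27me3, with medians of 0.13 and -0.01. Of 26 mitochondrial carriers it was 13 and 14, with medians of -0.05 and 0.04, and the H3K4me2 difference ranged from -1.44 in SLC25A31 to 1.67 in SLC25A40. Of 21 carriers of inorganic ions and acid-base equivalents it was 10 and 8 (medians -0.16 and -0.05). Of 17 carriers of carboxylates and organic ions it was 9 and 7 (0.13 and -0.06), a group that held SLC22A7, SLC16A3 and SLC10A4 at its lower end for both marks. Of 10 metal transporters only SLC30A1, at 1.42, and SLC39A11, at 0.29 (-0.25 without HF5), were higher in the subfertile mean for H3K4me2, and 5 were for H3K27me3. The differences of the 8 members of the sugar carrier families lay between -0.17 and 0.53 for H3K4me2 and between -0.51 and 0.48 for H3K27me3.

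The sugar carrier families had one direction between the marks in the 6-bull mean, but not in every bull. H3K4me2 exceeded H3K27me3 in the 6-bull mean of all 8, from 0.09 in SLC5A2, the renal glucose transporter SGLT2, to 0.58 in SLC2A11, with a median of 0.19. Per bull, the H3K4me2 and H3K27me3 medians of the 8 were 0.39 and 0.03 in SF5 and 0.19 and -0.27 in HF5. These 2 bulls had the lowest H3K4me2 ChIP signal. The medians were 0.02 and -0.14 in SF4, 0.07 and -0.02 in SF1, 0.06 and 0.06 in HF3, and 0.004 and 0.03 in HF2. SLC2A1, the glucose transporter GLUT1, differed by 0.48 and SLC2A8, the glucose transporter GLUT8 of testis, by 0.45, each in 5 of 6 bulls. The family rule also placed SLC5A6, a vitamin transporter, and SLC5A8, a monocarboxylate transporter, in this group, at 0.10 and 0.15. Over all genes H3K4me2 was the higher mark in 59.8%. It was higher in 19 of 26 mitochondrial carriers (median 0.16), 15 of 21 inorganic ion carriers (0.03) and 11 of 17 carboxylate and organic ion carriers (0.11). In the amino acid and peptide carrier families it was higher in 11 of 28 (-0.06), and in the vesicular transmitter carriers in none of 3 (-0.16). No list was tested, and no single member of any of these groups passed.

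**Figure D5:**
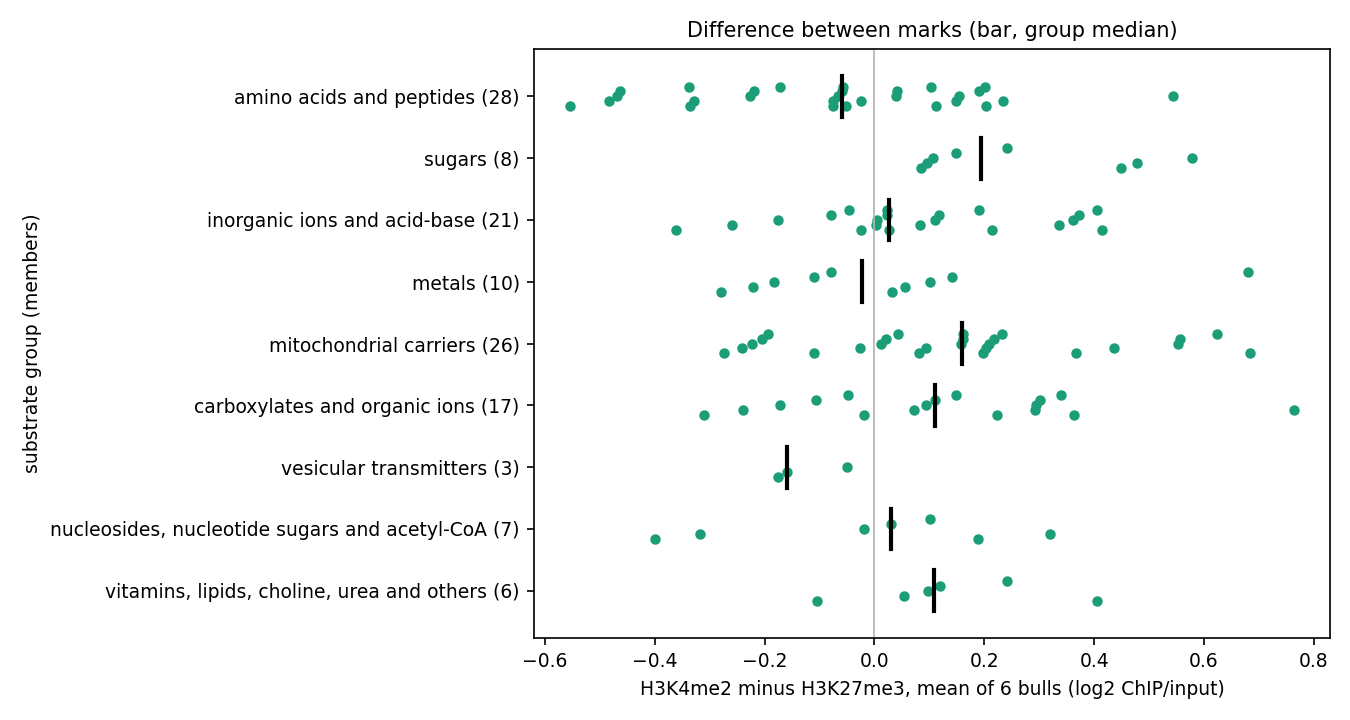
Each point is 1 member, placed by its H3K4me2 minus H3K27me3 difference (log2 ChIP/input, mean of 6 bulls) on the horizontal axis and by substrate group on the vertical axis, with the number of members in parentheses and a bar at the group's median. All 8 members of the sugar carrier families lie above 0, and the 3 vesicular transmitter carriers below.

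Among 36 solute carriers listed for known roles in sperm, 19 were measured. H3K4me2 was the higher mark in the 6-bull mean of 17 of the 19, beside 59.8% of all genes. The median difference was 0.20, beside 0.08 over all members. Per bull, the H3K4me2 and H3K27me3 medians of the 19 were 0.46 and 0.02 in SF5, 0.19 and -0.17 in HF5 and 0.11 and -0.14 in SF4. They were -0.09 and -0.13 in HF2, and in the other direction -0.17 and -0.12 in SF1 and 0.04 and 0.15 in HF3. The list was not tested. For fertility, 10 of 19 were higher in the subfertile mean for each mark, with medians of 0.12 and 0.00. The groups did not overlap in 2 of the 19 for each mark, SLC12A2 and SLC16A3, beside 6.58% of all genes for H3K4me2 and 8.57% for H3K27me3. Most of the other differences moved widely when single bulls were left out. The lactate and pyruvate carriers had H3K4me2 differences of either sign: SLC16A1, the transporter MCT1, differed by 0.61 (0.24 without HF3), SLC16A3 by -1.76, and SLC16A7, the transporter MCT2 of the sperm flagellum, by -0.42 (-0.05 without HF5). SLC25A31, whose loss stops spermatogenesis in mice, differed by -1.44 (-1.86, -0.09 and 0.09 in subfertile bulls, against -0.89, 0.62 and 2.73 in high-fertile bulls) with wide overlap, and by -0.49 without HF5. SLC25A4, the ADP/ATP carrier of muscle and heart, differed by -0.19, and by 0.22 without HF5. SLC25A20, the carnitine-acylcarnitine carrier, differed by 0.72, by 0.14 without HF2 and by 0.37 without SF5.

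The acid-base and ion carriers of the sperm list included SLC4A2, which differed by 0.23 for H3K4me2, and SLC9A3, which differed by 0.32 and by 0.03 without SF5. SLC4A4 differed by -1.43, with HF3 at 3.40 and HF5 at -2.27. Without HF3 its direction turned, to 0.23, and without HF5 it was -2.61. SLC26A8, an anion transporter of the sperm annulus needed for motility in mice, differed by -0.60 for H3K4me2 and -0.26 for H3K27me3, and by -0.39 and 0.34 without HF3. The zinc exporter SLC30A1 differed by 1.42 for H3K4me2, and by 0.66 without SF5. The zinc importer SLC39A1 differed by -0.49, and turned to 0.10 without HF3. SLC22A4, an ergothioneine and carnitine transporter, differed by 0.50 for H3K4me2, and by 0.02 without SF5. Its H3K27me3 difference of 0.15 turned to -0.07 without HF2. SLC6A6, the taurine transporter, read by 61 probes, differed by 0.12 and 0.11 for the 2 marks, and by -0.12 and -0.30 without HF3. SLC6A20, an imino acid transporter, differed by 0.26 for H3K4me2, and by 0.07 without SF5.

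For comparison, 47 other membrane transport genes were measured, 28 ion-motive ATPases, 14 ABC transporters, 3 SLCO carriers and 2 aquaporins. For H3K4me2 30 of the 47 were higher in the subfertile mean (median 0.13, beside 0.07 in the solute carriers), and the groups did not overlap in 6, 12.8% beside 6.58% of all genes. For H3K27me3 26 were higher (median 0.09), and the groups did not overlap in 3, 6.38% beside 8.57% of all genes. None of the 47 passed an adjusted p of 0.05 for either mark.

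The size of the differences was also set beside the number of probes, without a test. For H3K4me2 its median was 0.36 in the 37 members with 2 or 3 probes, 0.35 in the 43 with 4 to 9 and 0.32 in the 46 with at least 10, and the largest were 1.51, 2.42 and 1.31. For H3K27me3 the medians were 0.49, 0.28 and 0.26 and the largest 2.03, 2.29 and 1.42. Over all genes the H3K27me3 medians were 0.34, 0.32 and 0.30. SLC22A23, with 87 probes, differed by 0.13 for H3K4me2 and -0.11 for H3K27me3, and its levels lay between -0.44 and 0.31 on all 12 arrays. SLC17A7, with 84 probes, differed by 0.00 and -0.39, although its H3K4me2 levels ranged from -0.79 in SF5 to 0.65 in SF1.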

How the data were processed

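Sperm chromatin of 6 bulls, 3 subfertile and 3 high-fertile, was hybridised as ChIP (Cy5) and input (Cy3) for 2 marks. Per the file headers, the authors deposited an intensity per spot and colour from Agilent Feature Extraction (10.7 per the submitters' processing notes, 10.7.3.1 per the headers), already background-subtracted and dye-normalized, on cattle build HGSC Btau_3.1. The deposited value table holds log2 ratios whose method and centring are not stated (column medians -0.13 to 0.10) and whose scale and direction, ChIP over input, were read from its match to the scanner ratios. Quality flags deposited with the spots have no unit.

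Here log2 processed ratios were centred on each array's median without loess, keeping the 177372 of 177440 probes whose input was flagged well above background on 6 or more arrays. Gene values are means over probes. limma 3.58.1 (R 4.3.3, lmFit and eBayes, two-sided) was fitted to all 6805 genes, with Benjamini-Hochberg adjustment at 0.05, and tested on simulated data. The p-values measure the spread between bulls, which includes any spread between slides, and the number of arrays limits the precision. Input values average the 2 arrays of a bull. A bull's number links its 2 arrays within a fertility group as the same animal, by the labels' sample names. Number 5 names different bulls in the 2 groups. Whether a bull's 2 arrays came from separate chromatin preparations is not stated.

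Members named are, per fertility comparison and direction, the 8 of smallest unadjusted p with non-overlapping groups. They are also the extremes with one sign in 6 bulls for levels and marks, the 3 lowest and 3 highest input differences, the 3 with most probes, and the sperm list. A few genes that these rules select are not reported here. Substrate groups follow SLC family numbers. The members and lists were chosen with earlier results of these data known. Members' symbols come from the array design.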

Additional observations from a re-analysis of the deposited data

How the results depend on the processing

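No member passed an adjusted p of 0.05 in either fertility comparison, the interaction, the mark comparison or the input under any alternative, including each bull left out in turn (0 to 0 members) and the bull as a replicate block for the mark comparison and the interaction, where it changed no call. For the ratio levels this held too. The exception was the level of the ChIP signal alone, which is no ratio: 71 members passed for H3K4me2 and 64 for H3K27me3. Unadjusted p under 0.05 was met by 0 to 9 members for H3K4me2 and 4 to 10 for H3K27me3 over the alternatives. For the mark comparison it was met by 0 to 5 members, and for the interaction by 0 to 2. The shares of all genes under these alternatives are not given here. Neither these counts nor the 71 and 64 above therefore set the members apart from other genes.

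The median H3K4me2 difference over members, 0.07, was 0.00876 in the deposited value table, 0.00521 with CpG island probes only, -0.00473 without SF5 and HF5 and -0.0762 within slide 4 (SF1 minus HF5), and ranged from -0.0699 (without SF5) to 0.0975 (without SF1) when each bull was left out. It was -0.0293 without HF2. The median H3K4me2 level, 0.08, was 0.0206 after loess, 0.00480 without SF5 and HF5, and from 0.0199 (without SF5) to 0.0754 with each bull left out. Leaving out each bull moved the other medians from -0.0894 to 0.0448 (H3K27me3 difference, above 0 without SF5, HF2 or HF3), -0.0507 (without SF5) to 0.114 (interaction), 0.0247 to 0.0996 (mark difference), 0.00444 to 0.104 (input) and -0.0682 to -0.000855 (H3K27me3 level).

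With the ChIP signal alone and over the mean input of 6 bulls, the H3K4me2 difference turned in SLC25A40 (-0.33 and -0.37), SLC6A2 (0.0600 and 0.0217) and SLC13A4 (-0.00376 and -0.0420). These settings drop the bull's own input from the ratio. The other 6 members named for H3K4me2 and all 12 for H3K27me3 kept their direction in every alternative run, but not their size. These members were chosen for non-overlapping groups, so leaving out bulls or taking SF1 minus HF5 alone could not turn their direction. Only the alternatives in normalization, probes or input could do so. Within slide 4 the H3K4me2 difference was -0.139 in SLC22A7, -0.186 in SLC16A3 and 0.0482 in SLC12A2, and the H3K27me3 difference of SLC16A3 was -0.227. Named members that the rule of a fertility comparison did not select were checked for size in that comparison. Over the alternatives, 87 of their values moved by more than the spread between bulls. Members that the rule selected were checked for direction and adjusted p only. SLC24A6 turned to 0.00542 as a mean of site means, an alternative added after seeing that probes overlap. The H3K4me2 level turned in SLC29A3 after loess (-0.0368) and in the deposited table (-0.0828), and in SLC4A2 in that table (-0.0147). The H3K27me3 level of SLC7A8 was -0.52 as ChIP signal alone. The cause was not tested.

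No paired analysis was possible for the fertility comparisons because subfertile and high-fertile bulls are different animals. Slide as a random block was not run, since 5 slides for 6 arrays left its correlation inestimable. Only SF1 and HF5 shared a slide across the groups. A fertility difference over all bulls, in the ratio or the input, therefore cannot be told apart from a difference between slides. Signal over background limited few probes, and the number of bulls, 3 a group for fertility and 6 for marks and levels, bounds the precision.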
